A study of Mus musculus with 16 samples.

Results

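Aortic valve libraries from mice with a high cholesterol and a hypertension model (3) were compared with 4 from mice with the hypertension model alone. The comparison covered every gene of the deposited expression table that could be tested. These 7 libraries are part of 15 with a named column. All mice were on the C57BL/6J background. The hypertensive group (HT, 2 libraries labelled female and 2 male) carried transgenes that overexpress human renin and human angiotensinogen. The combined group (HC/HT, 2 libraries labelled female and 1 male) belonged to that model and to the ApoE knockout model as well. The transgenes are therefore on both sides of the comparison, and the ApoE knockout is on one side only. Anything else that separates the crossed line from the HT line cannot be told apart from the knockout. The age and diet of the mice, the promoters of the transgenes and the number of valves behind a library are not given in the sources used here. Also in the table are 4 libraries from control mice (CON) and 4 from mice with the ApoE knockout alone (HC).

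Apolipoprotein E sits on circulating lipoprotein remnants and is the ligand through which the liver clears them, so mice without it carry cholesterol-rich particles in the blood. Macrophages that take up such particles digest them in the lysosome, store cholesterol ester in lipid droplets, and send free cholesterol out again through ATP-binding cassette transporters, which the oxysterol-sensing LXR receptors switch on. The aortic valve leaflet is a thin sheet of matrix made by interstitial cells, covered by endothelium, with macrophages and, in mice, pigment cells inside it. Its hinge adjoins smooth muscle of the aortic wall and heart muscle.

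Values are given in units, the deposited normalised counts times 1 common factor that brings a library to about 1000000. Differences are fitted log2 differences, HC/HT minus HT, on the value plus a pseudocount of 1, with their standard error (SE). A gene passed at an adjusted p under 0.05 in limma, adjusted by Benjamini-Hochberg over the 15004 genes tested. The 7 libraries listed between 16006 and 17456 genes above 0. A group of 4 rows, among them the ribosomal precursor RN45S, took 43.5% to 62.7% of an HT library and 45.3% to 54.3% of an HC/HT library. Library factors from medians of ratios ran from 0.626 to 1.08 in HT and from 0.917 to 1.11 in HC/HT, with HT replicate 2 (0.626) and HT replicate 3 (0.661) lowest. The median difference of all genes was 0.21, and -0.01 once these factors were applied, so differences are best read against 0.21. Markers of valve interstitial cells were present throughout. The 22 genes of that list summed to 6435 to 9445 units in HC/HT and 5435 to 14586 in HT, with a median difference of -0.01. With medians of ratios the median was -0.25, and 21 of the 22 were below 0.

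Apoe, the gene removed in the knockout, was low in every HC/HT library. It stood at 9.80, 7.54 and 5.98 units in HC/HT replicates 1 to 3, and at 609, 318, 56.6 and 384 units in HT replicates 1 to 4. The groups did not overlap, and HT replicate 3 was the lowest of the HT libraries. Apoe (mm10 chromosome 7, from 19696244 to 19701310) fell by 4.97 ± 0.69 (SE) on the log2 scale, with an adjusted p of 0.0128. An exact two-sided permutation test over the 7 libraries gave p = 0.0571, the smallest that 35 splits allow. The adjusted p was 0.0631 without HC/HT replicate 1, 0.103 without HC/HT replicate 2 and 0.073 without HT replicate 2, with differences of -5.43, -4.88 and -4.95.

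In the valves with the knockout, 9 of 24 tested genes of lipid-laden macrophages, 2 of 18 of cholesterol export and 2 of 29 of the lysosome passed as higher than in hypertension alone, and few genes were lower. In all, 48 genes passed as higher (0.32% of those tested) and 8 as lower (0.0533%), together 0.373%. Their log2 differences ran from 1.38 to 4.49 and from -1.83 to -4.97, where -1.83 belongs to a transcript listed at 0 in HC/HT and depends on the pseudocount. In all 56 the 3 HC/HT libraries lay outside the range of the 4 HT libraries, which was so in 926 of the genes tested (6.17%), in 749 of them with HC/HT higher (4.99%) and in 177 with HC/HT lower (1.18%). An unadjusted p under 0.05 was found in 1307 genes (8.71%), and 69.5% of all differences were above 0. With medians of ratios 24 genes passed as higher and 12 as lower, and with quantile normalisation 32 and 13. The share of passing genes that were higher was then 66.7% and 71.1%, against 85.7% here.

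The number of higher genes depended on single HT and HC/HT libraries. HT replicate 1 was the highest HT library in 40 of the 48 higher genes and HT replicate 3 the lowest in 30. Without HT replicate 1, 251 genes passed as higher and 8 as lower. Without HT replicate 2 it was 4 and 3, without HT replicate 3 it was 13 and 11, and without HT replicate 4 it was 19 and 4. Without HC/HT replicate 1 it was 5 and 2, without replicate 2 it was 7 and 3, and without replicate 3 it was 39 and 10. Abcg1, Cd5l, Gpnmb and Trem2 among the higher genes, and AK041157 among the lower ones, passed in each of the 7 omissions. Every other gene that passed lost its call in at least 1 of them. With HT replicates 2 and 3 both left out, a choice made after the data were seen, 2 genes passed as higher and 5 as lower.

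Genes known from foam cells, the lipid-filled macrophages of atherosclerotic lesions, held the largest increases among the genes that passed. Of the 24 genes on this list, all tested, 23 had a difference above 0 and 9 passed, all higher. The list median was 1.73, or 1.46 with medians of ratios. Cd5l, a protein secreted by macrophages that protects them from cell death, stood at 25.4, 32.3 and 32.7 units in HC/HT and at 0.392, 1.08, 0 and 0.294 in HT. It was near 0 in every HT library and the HC/HT libraries lay close together. Its difference was 4.49 ± 0.45 (adjusted p 9.07e-07), the largest of the genes that passed as higher, and it passed in 21 of 21 alternatives.

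Gpnmb, a transmembrane glycoprotein of lysosomes in lipid-laden macrophages, stood at 437, 237 and 413 units in HC/HT and at 53.0, 27.0, 12.9 and 47.9 in HT. The lowest HC/HT library lay well above the highest HT library, and the difference was 3.46 ± 0.47 (adjusted p 0.00121). The lipid-sensing receptor Trem2 stood at 36.5, 47.8 and 19.5 units in HC/HT and at 8.23, 2.35, 1.47 and 2.15 in HT (3.06 ± 0.45, adjusted p 0.000751). HC/HT replicate 3 was the lowest of the 3 and HT replicate 1 the highest of the 4. Gpnmb passed in 21 alternatives and Trem2 in 20, the exception for Trem2 being the fit without HT replicates 2 and 3, where its adjusted p was 0.0585. Cd5l lies on mm10 chromosome 3 (87357881 to 87371074), Gpnmb on chromosome 6 (49036518 to 49058182) and Trem2 on chromosome 17 (48346401 to 48352276).

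Lysosomal and lipid storage members of the same list followed. Atp6v0d2, a subunit of the proton pump that acidifies lysosomes, stood at 52.5, 28.9 and 63.2 units in HC/HT and at 13.8, 4.51, 0.392 and 3.13 in HT (3.24 ± 0.58, adjusted p 0.0259). Acp5, a lysosomal acid phosphatase, stood at 11.4, 18.5 and 8.42 against 4.41, 0.882, 0.196 and 0.294 units (2.66 ± 0.49, adjusted p 0.0125). The galactose-binding lectin Lgals3 stood at 117, 93.1 and 43.8 against 34.3, 8.52, 3.72 and 5.98 units (2.92 ± 0.60, adjusted p 0.0491). In these 3 genes HT replicate 1 was the highest HT library and HT replicate 3 the lowest. Plin2, which coats lipid droplets, stood at 48.6, 52.6 and 41.3 against 23.5, 10.7, 4.70 and 11.9 units (1.95, adjusted p 0.0296). The cathepsin Ctsd (1.76, adjusted p 0.0491) and Lipa (1.53, adjusted p 0.0467), the lipase that frees cholesterol from its esters inside lysosomes, completed the 9. Over the 7 omissions the largest adjusted p was 0.22 for Atp6v0d2, 0.132 for Acp5, 0.316 for Lgals3, 0.248 for Plin2, 0.374 for Ctsd and 0.359 for Lipa. Omitting HC/HT replicate 1 or HT replicate 2 ended each of these 6 calls.

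Spp1, which encodes the secreted phosphoprotein osteopontin, did not pass although the groups lay apart. It stood at 344, 381 and 238 units in HC/HT and at 63.0, 19.6, 51.7 and 9.01 in HT, a difference of 3.34 ± 1.00 with an adjusted p of 0.308. The macrophage elastase Mmp12 (163, 84.7 and 144 against 104, 20.7, 16.9 and 47.4 units) overlapped HT replicate 1 and did not pass either (1.69, adjusted p 0.203). The membrane protease Adam8 had a difference of 1.79 (adjusted p 0.102).

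**Figure D1:**
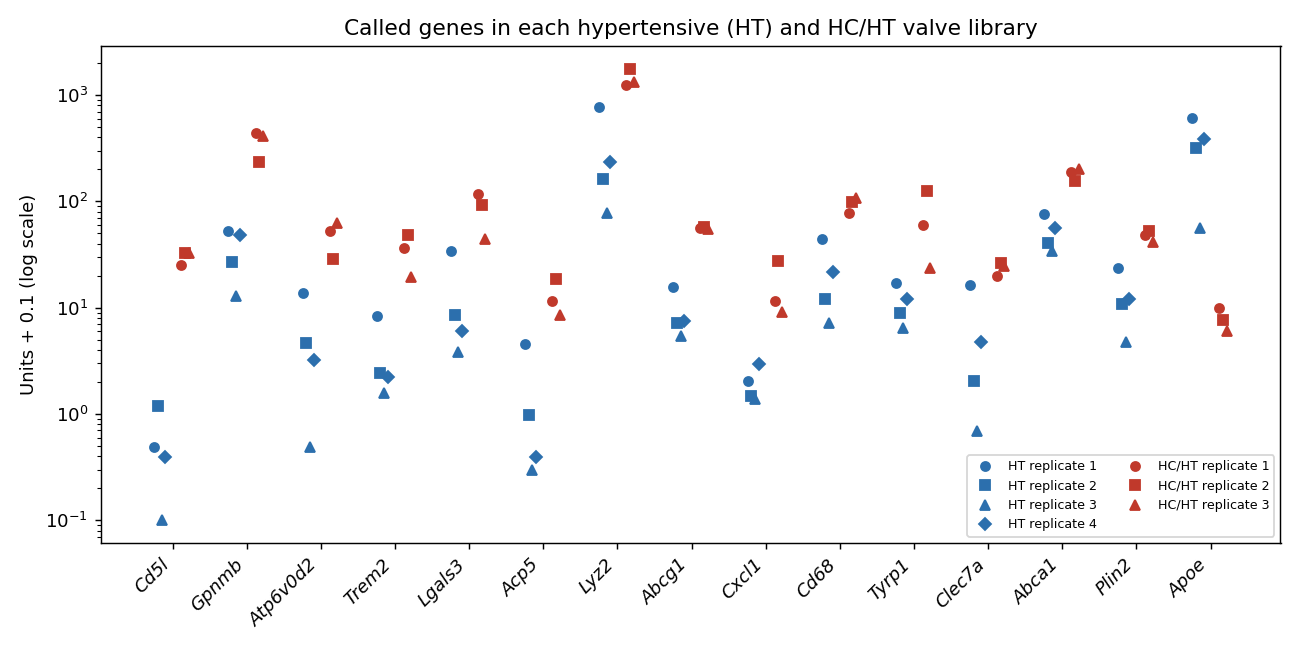
Units plus 0.1 on a log axis for 15 genes that passed, 1 symbol per library, blue for the 4 HT and red for the 3 HC/HT libraries. In 14 genes all red symbols lie above all blue ones, as for Cd5l (25.4 to 32.7 against 0 to 1.08 units), and in Apoe they lie below (5.98 to 9.80 against 56.6 to 609).

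The cholesterol exporters Abcg1 and Abca1 rose. Abcg1, which passes cholesterol to high density lipoprotein, stood at 56.6, 57.7 and 55.4 units in HC/HT and at 15.4, 7.15, 5.29 and 7.35 in HT (2.62 ± 0.39, adjusted p 0.000751). The HC/HT libraries lay close together, at 56.6 ± 1.13 units (mean ± SD, n = 3). Abca1, which loads cholesterol onto lipid-poor apolipoprotein, stood at 191, 154 and 202 units in HC/HT and at 75.8, 40.7, 33.8 and 56.2 in HT (1.85 ± 0.34, adjusted p 0.0128). Abca1 did not pass without HC/HT replicate 1 or without HT replicate 2, with an adjusted p of up to 0.148. Of 18 tested genes on the efflux and LXR target list, 18 had a difference above 0 and these 2 passed. The list median was 0.97, or 0.64 with medians of ratios, under which 2 of the 18 were below 0. Soat1, which esterifies cholesterol for storage, was at 1.21 (adjusted p 0.178) and the phospholipid transfer protein Pltp at 1.07 (adjusted p 0.233).

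Of 13 tested scavenger receptor and lipid uptake genes, 10 had a difference above 0, beside 69.5% of all genes tested. The median was 0.76, and Cd68 alone passed. With medians of ratios the median was 0.54, and 4 of the 13 were below 0. Msr1, the class A scavenger receptor, stood at 32.6, 52.2 and 36.0 units in HC/HT and at 22.4, 6.66, 1.47 and 9.21 in HT without passing (2.22, adjusted p 0.0871). Cxcl16, a membrane chemokine that also binds oxidised lipoprotein, was at 1.37 (adjusted p 0.0819). In both genes the libraries of the groups did not overlap. That was so, with HC/HT higher, in 5 of the 13 genes and in 4.99% of all genes tested.

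Lysosomal genes beyond the foam cell list were above 0 in 29 of 29 members tested, with a median of 0.85, or 0.59 with medians of ratios. Those that passed were Psap and Tcirg1. Psap, the precursor of the saposins that present lipids to lysosomal enzymes, stood at 506, 447 and 296 units in HC/HT and at 226, 102, 45.6 and 110 in HT (1.91 ± 0.41, adjusted p 0.0343). Tcirg1, another proton pump subunit, stood at 74.6, 122 and 50.8 against 30, 8.72, 15.6 and 35.8 units (1.97 ± 0.42, adjusted p 0.0338). Without HT replicate 2 or HC/HT replicate 1 neither passed, with a largest adjusted p over the omissions of 0.321 for Psap and 0.351 for Tcirg1. The pump subunit Atp6v1a stood at 116, 75.2 and 64.4 against 70.3, 28.1, 31.1 and 32.7 units, overlapping HT replicate 1 (1.10, adjusted p 0.226).

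Cholesterol synthesis genes, which cells switch on when sterol in their membranes is low, were above 0 in 24 of 24 tested members, but none passed. The list median was 0.98, or 0.73 with medians of ratios. Hmgcs1, which makes the substrate of the rate-limiting reductase, stood at 120, 70.3 and 18.8 units in HC/HT and at 40.6, 16.0, 42.7 and 15.9 in HT (1.10 ± 0.56, adjusted p 0.606). HC/HT replicate 3 lay inside the HT range. HT replicate 3, lowest in most macrophage genes, was the highest HT library in 17 of these 24 genes. Without HC/HT replicate 1 the list median was 0.52, and without HC/HT replicate 3 it was 1.52.

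Promoter letters known from these pathways were looked for in the 250 bases before RefSeq start sites of GRCm38.p6, on both strands. A gene counted if any of its start sites had a match. The Atp6v1a window with its match (44139260 to 44139509) lies inside that gene's span (44085402 to 44139702), so it does not precede the outermost start. The lysosomal CLEAR core TCACGTGA stood in 0.907% of 27025 genes with a RefSeq promoter. On the lysosome list 3 of 23 genes with a promoter held it, namely Atp6v1a, Ctsa and Mcoln1. Among 35 higher genes with a promoter 1 held it, Ctsd. The sterol element TCACNCCAC stood in 1.22% of the 27025 genes. It stood in 2 of the 35 (Ftl1, which encodes the ferritin light chain, and Ucp2, a mitochondrial carrier) and, on the cholesterol synthesis list, in Hmgcs1, 1 of 17. The direct repeat bound by LXR stood in 4 of the 27025 genes and in none of these sets. The sites of the genes that passed, and for comparison those of Atp6v1a and Hmgcs1, are shown with the match in capitals, 5′ to 3′ on the gene's strand.
Ctsd, chr7:142387903-142387942, minus strand: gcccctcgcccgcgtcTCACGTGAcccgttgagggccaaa
Atp6v1a, chr16:44139368-44139407, minus strand: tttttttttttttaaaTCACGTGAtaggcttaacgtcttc
Ftl1, chr7:45459910-45459950, minus strand: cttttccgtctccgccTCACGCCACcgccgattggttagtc
Ucp2, chr7:100493282-100493322, plus strand: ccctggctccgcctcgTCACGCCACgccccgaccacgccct
Hmgcs1, chr13:119690198-119690238, plus strand: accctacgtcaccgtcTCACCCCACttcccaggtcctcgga
Ftl1 stood at 1206, 1218 and 703 units in HC/HT and at 668, 264, 140 and 212 in HT (1.85, adjusted p 0.0473). Ucp2 stood at 170, 196 and 201 against 108, 58.0, 46.0 and 81.5 units (1.38, adjusted p 0.0473). Both were named for their promoter match, after their values were seen.

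Of 24 pan-macrophage genes, markers shared by macrophages of any kind, 24 were above 0 and 5 passed, with a median of 1.60. Lyz2, lysozyme, stood at 1260, 1782 and 1317 units in HC/HT and at 768, 162, 77.8 and 237 in HT (2.66 ± 0.52, adjusted p 0.0338). Cd68, a glycoprotein of macrophage lysosomes, stood at 77.0, 98.7 and 107 against 44.1, 12, 7.15 and 21.4 units (2.37 ± 0.42, adjusted p 0.0125). The other members that passed were the fungal sugar receptor Clec7a (2.33, adjusted p 0.049), the lysosomal membrane protein Laptm5 (2.13, adjusted p 0.0338) and the leukocyte integrin subunit Itgb2 (2.05, adjusted p 0.035). Over the omissions the largest adjusted p was 0.259 for Lyz2, 0.143 for Cd68, 0.388 for Clec7a, 0.252 for Laptm5 and 0.308 for Itgb2. Omitting HT replicate 2 or HC/HT replicates 1 or 2 ended each of these 5 calls.

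The summed level of the 24 macrophage markers was 2819, 4224 and 3193 units in HC/HT and 2316, 537, 291 and 865 in HT. HT replicate 1 thus came close to the HC/HT libraries, and it was the highest HT library in 21 of the 24 genes. HT replicate 3 was the lowest in 20. No marker of the list was at 0 in all 7 libraries. In whole tissue, more macrophages and more macrophage RNA per cell cannot be told apart, and the same holds for each cell type below. The part of this sum in the foam cell and lysosome results was not tested. The median of this list was 2.27 without HT replicate 1, 1.27 without HT replicate 3 and 0.79 without HT replicates 2 and 3.

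Of 16 tested genes of long-lived resident macrophages 11 were above 0 and 5 below, beside 69.5% of all genes tested above 0, and none passed. The median was 0.16, or -0.05 with medians of ratios and -0.11 without HT replicate 3. The groups did not overlap in 1 gene with HC/HT higher (4.99% of all genes tested) and in 1 with HC/HT lower (1.18%). The higher one was Stab1, a scavenger receptor of macrophages and sinusoidal endothelium, at 111, 124 and 92.6 units in HC/HT and 86.3, 46.1, 18 and 53.8 in HT (1.22 ± 0.38, adjusted p 0.217). The lower one was Lyve1, a hyaluronan receptor of resident macrophages and lymphatic endothelium, at 0.392, 0.980 and 1.76 units in HC/HT and 11.1, 21.4, 3.23 and 5.98 in HT (-2.33 ± 0.59, adjusted p 0.112). The receptors Timd4 (-0.93, adjusted p 0.571) and Cd163 (-0.80, adjusted p 0.739) overlapped between the groups.

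**Figure D2:**
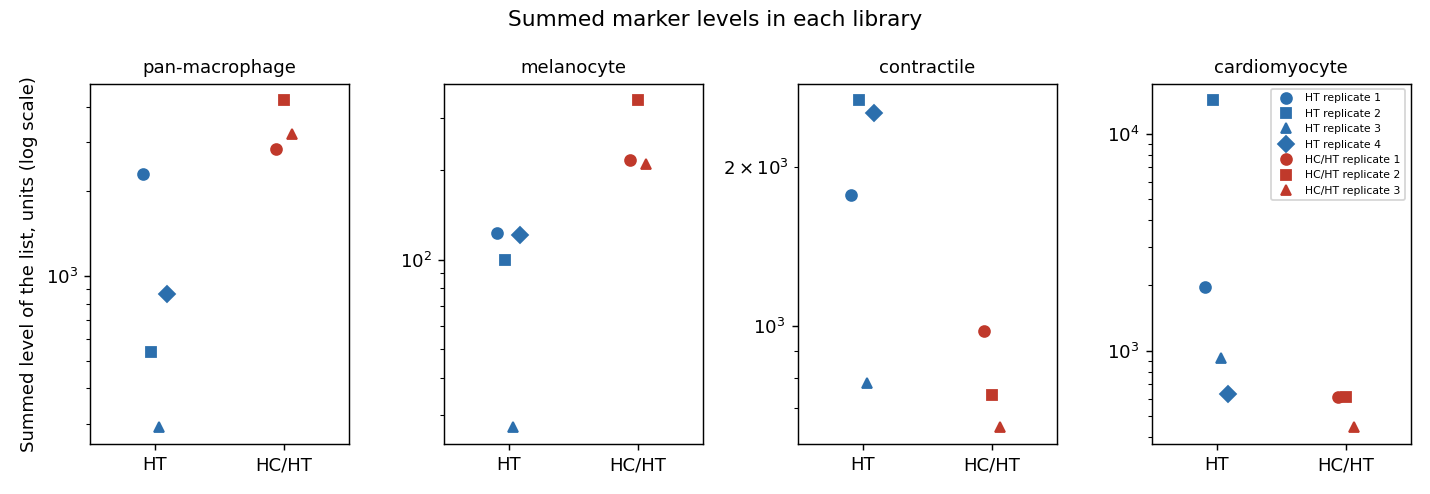
Summed level of 4 marker lists in units, on log axes that differ between panels, 1 symbol per library. The macrophage sum is 2819 to 4224 in HC/HT and 291 to 2316 in HT, the melanocyte sum 210 to 344 and 27.3 to 123, the contractile sum 645 to 980 and 783 to 2673, and the cardiomyocyte sum 443 to 613 and 633 to 14339.

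Inflammatory mediators and leukocyte genes were mostly above 0, with few that passed. On the chemokine, cytokine and receptor list 29 of 31 tested members were above 0, the median was 1.15, and 2 passed. Cxcl1, a neutrophil attractant, stood at 11.4, 27.2 and 9.11 units in HC/HT and at 1.96, 1.37, 1.27 and 2.84 in HT (2.52 ± 0.54, adjusted p 0.0338). Cxcr4, the receptor for the chemokine Cxcl12, stood at 37.1, 35.6 and 27.2 against 12.9, 5.00, 3.23 and 10.4 units (2.07 ± 0.46, adjusted p 0.0394). Cxcl1 kept its call in 2 of the 7 omissions and Cxcr4 in 1, with a largest adjusted p of 0.36 and 0.34.

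Lymphocyte markers were low throughout. Of 19 tested T and NK cell genes 19 were above 0 and 1 passed, with a median of 0.96 and a list sum of 84.2 to 145 units in HC/HT and 17.4 to 71.6 in HT. The gene that passed was the T cell receptor alpha locus Tcra, at 2.74, 3.43 and 6.37 units in HC/HT and 0.196 in each HT library (2.04 ± 0.44, adjusted p 0.0338). The integrin Itgae (2.17, adjusted p 0.0514) and the interleukin 7 receptor Il7r (2.48, adjusted p 0.135) did not pass. Of 6 tested B and plasma cell genes 6 were above 0, and the B cell lectin Cd22 passed, at 10.8, 12.8 and 7.05 against 3.04, 0.588, 0.784 and 1.86 units (2.21 ± 0.51, adjusted p 0.049). Tcra and Cd22 each kept their call in 1 of the 7 omissions, with a largest adjusted p of 0.229 and 0.388. At these levels the list medians moved with the pseudocount, to 1.51 and 1.42 at 0.25 and to 0.49 and 0.36 at 4.

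Antigen presentation, complement, interferon and adhesion genes did not pass. For comparison, 69.5% of all genes tested were above 0. Antigen presentation genes, MHC class II among them, were above 0 in 16 of 16, with a median of 0.95. H2-Eb1, a class II chain, stood at 116, 217 and 279 units in HC/HT and at 235, 57.3, 13.7 and 75.6 in HT, so HT replicate 1 lay above 2 of the 3 HC/HT libraries (1.47, adjusted p 0.48). Complement genes were above 0 in 14 of 18, and the C3a receptor C3ar1 came closest to passing, at 112, 122 and 116 against 81.6, 15.9, 7.93 and 24 units (2.26, adjusted p 0.0598). Interferon-stimulated genes were above 0 in 17 of 19, and Mx1 was at 10.4, 21.4 and 13.2 units in HC/HT and 29.5, 1.37, 0.588 and 5.68 in HT. The interferon list summed to 1383 units in HT replicate 1 and to 462 to 687 in HC/HT. Its median of 0.63 became -0.39 without HT replicates 2 and 3. Adhesion genes were above 0 in 14 of 14, with the endothelial selectins Selp at 1.29 (adjusted p 0.103) and Sele at 1.74 (adjusted p 0.12), and the vascular adhesion molecule Vcam1 at 0.59 (adjusted p 0.748). With medians of ratios 3 of these 14 were below 0, and the adhesion median went from 0.50 to 0.23.

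On the oxidative stress list 21 of 26 tested genes were above 0, beside 69.5% of all genes tested, with a median of 0.49. The haem-degrading enzyme Hmox1 was at 1.56 and did not pass (adjusted p 0.106). Proliferation genes were above 0 in 26 of 29, immediate early genes in 18 of 19 and cytosolic ribosomal protein genes in 44 of 45, with medians of 0.51, 0.69 and 0.49, and none passed. The ribosomal median was 0.23 with medians of ratios, where 8 of 45 were below 0, 0.07 without HC/HT replicate 1, 0.18 without HT replicate 3, 0.86 without HT replicate 1 and -0.36 in females alone. The immediate early median was 0.46 with medians of ratios, 0.45 without HT replicate 3 and 0.32 in females alone, and the oxidative stress median was 0.23 with medians of ratios or without HC/HT replicate 1 and 0.07 in females alone. The proliferation median was 0.38 with medians of ratios and 0.88 without HT replicate 1.

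The remaining 22 higher genes are on no list. Besides Ftl1, Ucp2 and Galnt6 they are 19 genes with differences from 1.70 to 2.32 and adjusted p from 0.0208 to 0.0491. They include Syk, Fgr, Lat2, Pirb, Pik3cd, Csf2rb, Cd53, Myo1f and Rasal3, known from signalling, adhesion and movement of blood cells, and the tumour necrosis factor receptor Tnfrsf1b. Others are Abcc3, Cdk18, Cotl1, Pld3, Renbp, Slc37a2 and Rpph1. Gpr137b and its copy Gpr137b-ps can share reads, so their values are uncertain. Galnt6, an enzyme that starts O-linked glycosylation, stood at 11.2, 8.52 and 12.1 units in HC/HT and at 1.96, 2.55, 0.392 and 1.18 in HT (2.21, adjusted p 0.0202).

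Of 9 tested melanocyte genes 3 rose, 9 were above 0, and the median was 1.25, or 1.09 with medians of ratios. Tyrp1, an enzyme of melanin synthesis, stood at 59.6, 125 and 23.7 units in HC/HT and at 16.8, 8.82, 6.37 and 12 in HT (2.37 ± 0.49, adjusted p 0.0343). Pmel, the fibril protein of pigment granules, stood at 27.3, 28.2 and 10.4 against 6.66, 3.13, 5.49 and 2.35 units (2.08 ± 0.44, adjusted p 0.0338). Kit, the receptor for stem cell factor on melanocytes and mast cells, stood at 12.9, 27.8 and 14.8 against 5.09, 3.72, 1.67 and 6.86 units (1.87 ± 0.43, adjusted p 0.049). The groups did not overlap in these 3 genes, and HC/HT replicate 2 was the highest library in each.

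Dct, another melanin enzyme, stood at 74.1, 88.8 and 83.4 units in HC/HT and at 43.9, 33.7, 6.37 and 51.2 in HT without passing (1.54, adjusted p 0.345). The list summed to 216, 344 and 210 units in HC/HT and 123, 99.6, 27.3 and 121 in HT, and HT replicate 3 was the lowest library in 8 of the 9 genes. In CON the sum ran from 140 to 274 and in HC from 129 to 277, ranges that overlap HC/HT and lie above HT. The genes that passed also had their highest group mean in HC/HT. Tyrp1 was at 69.5 units there, 26.8 in CON and 21.5 in HC. Pmel was at 22, 13.5 and 14.2 units in these groups, and Kit at 18.5, 6.88 and 9.18. Without HT replicate 3 the list median was 0.94. Over the omissions the largest adjusted p was 0.285 for Tyrp1, 0.313 for Pmel and 0.426 for Kit, and HC/HT replicates 1 and 2 and HT replicate 2 each ended all 3 calls when left out.

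**Figure D3:**
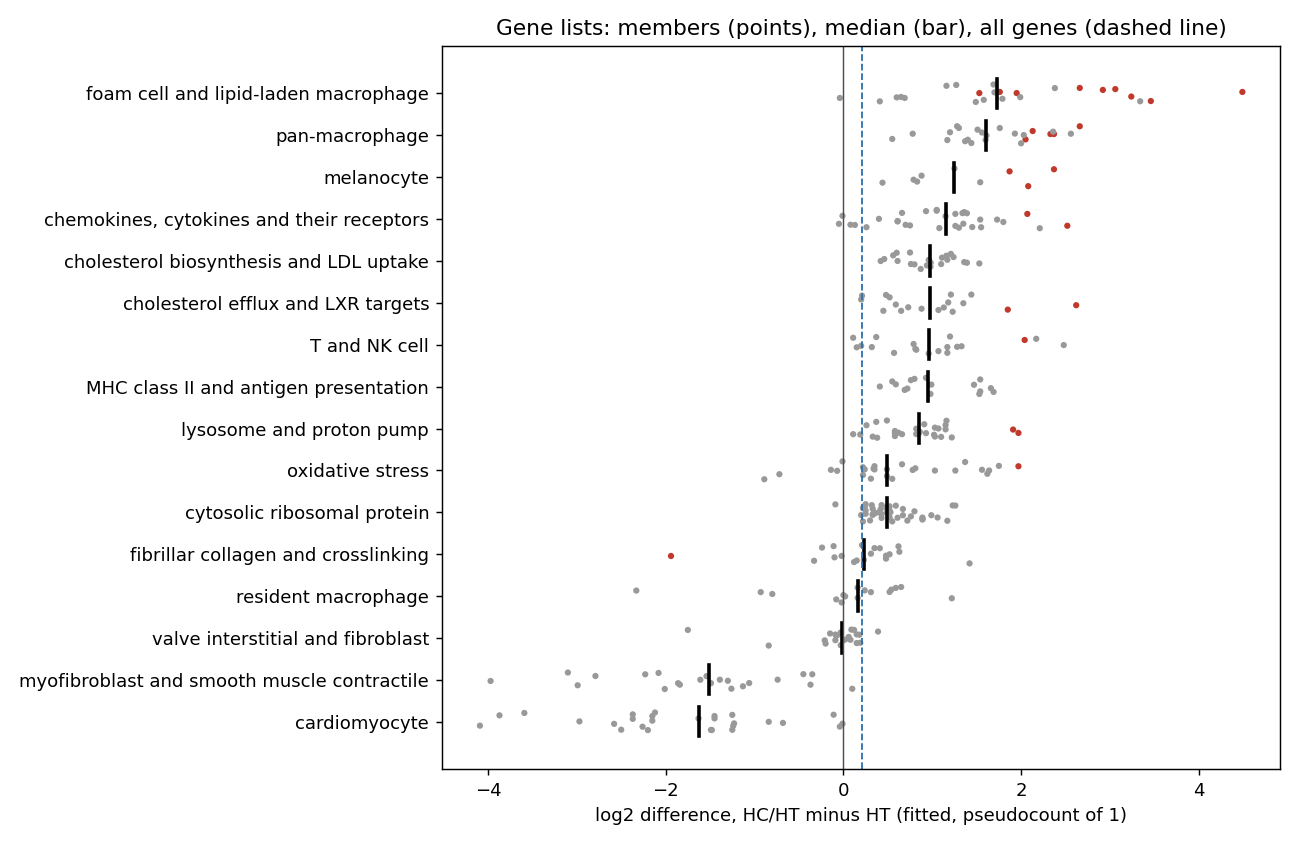
Log2 differences, HC/HT minus HT, of the tested members of 16 gene lists, with red points for genes that passed, a black bar at each list's median and a dashed line at the median of all genes (0.21). Foam cell (1.73) and pan-macrophage (1.60) lists lie farthest right, and contractile (-1.51) and cardiomyocyte (-1.63) lists lie left of 0 with no gene that passed.

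No gene on the lists of contractile and heart muscle genes passed. Of 22 myofibroblast and smooth muscle genes 21 were below 0, with a median of -1.51, or -1.78 with medians of ratios. In 5 the groups did not overlap, with HC/HT lower, which was so in 1.18% of all genes tested. Myl9, the regulatory light chain of smooth muscle myosin, stood at 7.25, 5.68 and 2.64 units in HC/HT and at 66.8, 92.7, 12 and 102 in HT, a difference of -3.10 ± 0.82 with an adjusted p of 0.214. Acta2, smooth muscle actin, stood at 54.3, 83.2 and 27.2 against 299, 368, 42.5 and 375 units (-2.01 ± 1.31, adjusted p 0.721). Mylk, the kinase of that light chain, stood at 12, 16.7 and 12 against 34.5, 43.8, 11.9 and 85.8 units (-1.26 ± 0.51, adjusted p 0.48). HT replicate 3 lay at the level of the HC/HT libraries in Acta2 and Mylk, and was the lowest HT library in 17 of the 22 genes.

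Of 27 tested cardiomyocyte genes 27 were below 0, with a median of -1.63. In 4 the groups did not overlap, with HC/HT lower (1.18% of all genes tested). Myl7, an atrial myosin light chain, stood at 0.392, 2.84 and 0.196 units in HC/HT and at 61.2, 560, 5.09 and 2.35 in HT (-4.09 ± 1.62, adjusted p 0.501). Ryr2, the calcium release channel of heart muscle, stood at 5.09, 4.02 and 3.13 against 33.6, 298, 17.6 and 10.5 units (-2.97 ± 1.03, adjusted p 0.412). The list summed to 613, 608 and 443 units in HC/HT and to 1960, 14339, 925 and 633 in HT. HT replicate 2 was the highest HT library in 24 of the 27 genes, and without it the medians were -0.72 for this list and -0.98 for the contractile list. In a fit of females alone, which holds HT replicates 1 and 2, 117 genes passed as lower, among them 21 of the 27 cardiomyocyte and 14 of the 22 contractile genes. How much heart or vessel wall each dissected valve held was not tested.

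**Figure D4:**
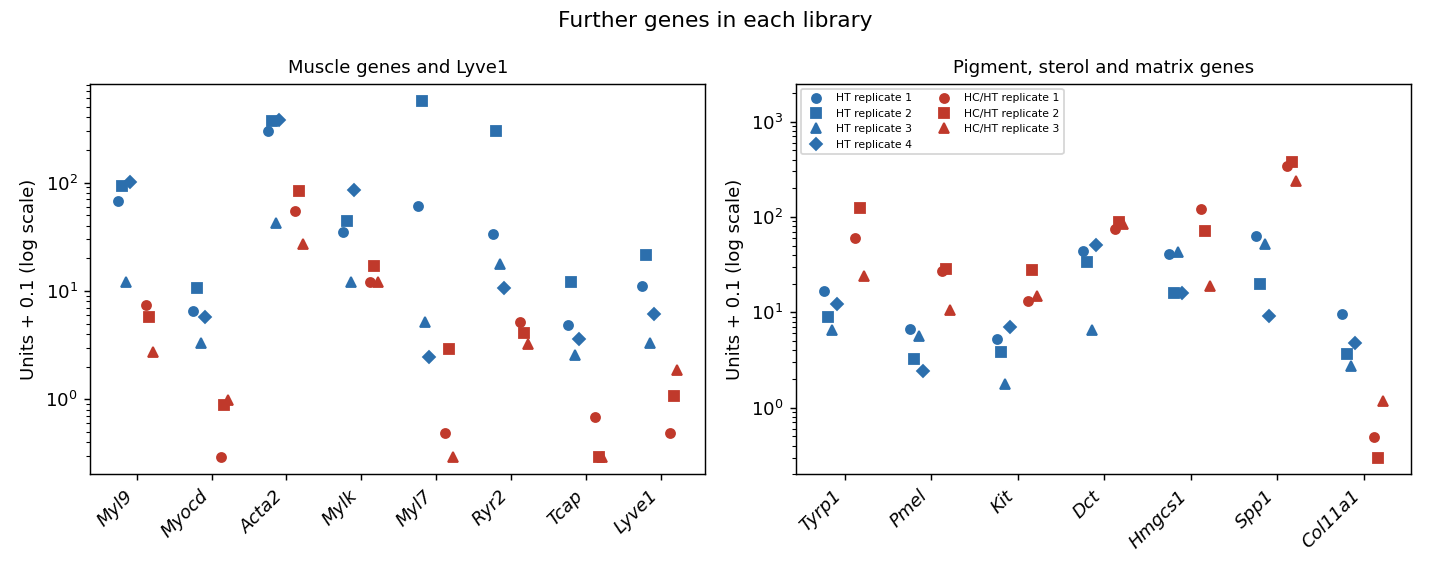
Units plus 0.1 on a log axis for muscle genes and Lyve1 (left) and for pigment, sterol and matrix genes (right), 1 symbol per library. Myl7 and Ryr2 peak in HT replicate 2 (560 and 298 units), Acta2 is low in HT replicate 3 (42.5), and Tyrp1 is highest in HC/HT replicate 2 (125).

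Matrix genes, which give the valve its stiffness, mostly overlapped between the groups. Of 19 fibrillar collagen and crosslinking genes 13 were above 0, beside 69.5% of all genes tested. The median was 0.23, or -0.04 with medians of ratios, and 1 passed, as lower. Col11a1, a minor chain that nucleates collagen fibrils, stood at 0.392, 0.196 and 1.08 units in HC/HT and at 9.50, 3.53, 2.64 and 4.70 in HT. It fell by 1.94 ± 0.44 on the log2 scale (adjusted p 0.0472), and passed in none of the 7 omissions (largest adjusted p 0.36). Col1a1, the main fibrillar chain, stood at 278, 306 and 284 units in HC/HT and at 515, 183, 308 and 344 in HT (-0.11 ± 0.37, adjusted p 0.957). Col3a1 stood at 341, 918 and 333 against 564, 260, 193 and 290 units (0.62 ± 0.50, adjusted p 0.764). With an SE of 0.37 or more on the log2 scale these values do not show that collagen expression was alike.

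Basement membrane, proteoglycan, matricellular and protease lists had 11 of 21, 10 of 20, 13 of 20 and 16 of 20 members above 0. Among all genes tested 69.5% were above 0. Their medians were 0.08, -0.01, 0.15 and 0.48, and none passed. With medians of ratios the medians were -0.19, -0.28, -0.10 and 0.22, and 15, 17, 11 and 6 members were below 0. Chad, a leucine-rich cartilage protein, stood at 37.9, 20.8 and 8.62 units in HC/HT and at 454, 146, 86.7 and 43.9 in HT (-2.75 ± 0.79, adjusted p 0.257). Among osteogenic and chondrogenic genes 6 of 16 were above 0, with the bone transcription factor Runx2 at 0.80 (adjusted p 0.61) and the cartilage proteoglycan Acan at -1.27 (adjusted p 0.417). TGF-beta and BMP genes were above 0 in 19 of 27 and Notch and Wnt genes in 20 of 28, beside 69.5% of all genes tested. Tgfb1 was at 0.44 (adjusted p 0.806), the receptor Notch3 at 1.35 (adjusted p 0.239) and the Wnt receptor Fzd2 at -1.25 (adjusted p 0.383).

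Of 7 tested genes of the renin-angiotensin system, the pathway that the HT transgenes drive, 3 were above 0 and none passed, with a median of -0.31. No row was found for the renin gene Ren1 or for the receptors Agtr1b and Agtr2, so they could not be tested. The counts of this paragraph stand beside 69.5% of all genes tested above 0. Endothelial (15 of 22 above 0), adipocyte (3 of 9), erythroid (4 of 5), platelet (4 of 6) and Schwann cell (7 of 11) lists held no gene that passed either. The respiratory chain had 16 of 27 above 0 and the unfolded protein response 15 of 19. On the neutrophil and mast cell list 6 of 10 were above 0 and Kit alone passed.

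Besides Apoe and Col11a1, the genes that passed as lower were 6 unannotated or predicted transcripts, named here after their values were seen. AK041157 stood at 0.196, 1.67 and 0.882 units in HC/HT and at 15.2, 23.9, 18.2 and 84.3 in HT (-3.96 ± 0.51, adjusted p 0.000192), highest in HT replicate 4, and passed in 21 of 21 alternatives. AK039360 (-2.95, adjusted p 0.00204) and AK048672 (-2.70, adjusted p 0.00571) passed in 20, with an adjusted p of 0.0642 each without HC/HT replicate 1. Gm3893 followed (-2.24, adjusted p 0.0338). No HC/HT library was above 0.196 units in AK039360, AK048672 or Gm3893. The HT libraries ran from 4.41 to 23.6, from 3.92 to 17.2 and from 2.45 to 14.6 units. The differences of these transcripts therefore depend on the pseudocount. DQ687153 (2.06, 3.13, 2.06 and 8.03 units in HT, adjusted p 0.0296) and 4930578G10Rik (2.25, 2.45, 1.67 and 5.00 units in HT, adjusted p 0.0338) were listed at 0 in all 3 HC/HT libraries, so no fold is given. The largest adjusted p over the omissions was 0.292 for Gm3893, 0.218 for DQ687153 and 0.281 for 4930578G10Rik. Gm3893 (42089373 to 42092930) and 4930578G10Rik (42670290 to 42871806) lie near each other on mm10 chromosome 4. The other 4 have no position in the tables used here.

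Further down, genes below the threshold included Pcp4l1 (-1.65, adjusted p 0.0631), the sarcomere protein gene Tcap (-2.15, adjusted p 0.0751), Homer2 (-1.86, adjusted p 0.106) and Csdc2 (-1.97, adjusted p 0.12). Vmn2r29, Aldh5a1, Cmya5, Slco1a4 and Trim63 came next, with adjusted p from 0.135 to 0.203 and differences from -1.51 to -1.82. Slco1a4 was listed at 0 in all 3 HC/HT libraries. Cmya5 and Trim63 are, like Tcap, muscle genes.

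The effect of the knockout without hypertension, HC against CON, is a comparison of other libraries from the same fit. It holds 16 higher genes (0.107% of those tested) and 9 lower ones (0.06%). Higher in both comparisons were 9 genes, 18.8% of the 48 here and 56.2% of the 16 there. They are Abca1, Abcg1, Acp5, Atp6v0d2, Cd5l, Galnt6, Gpnmb, Lgals3 and Trem2. Lower in both were 7 genes, all of the 8 here except Col11a1. No gene passed in opposite directions. Of the 48 higher genes 47 had a difference above 0 without hypertension, with a median of 1.44 there and 2.04 here. All 16 genes higher in HC were above 0 here, with a median of 2.50.

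The levels of the 2 knockout groups were not tested against each other. Cd5l was at 38.3 ± 13.9 units in HC (mean ± SD, n = 4) and 30.1 ± 4.13 in HC/HT (n = 3), Trem2 at 34.0 ± 7.03 and 34.6 ± 14.3, and Abcg1 at 73.1 ± 17.7 and 56.6 ± 1.13. Atp6v0d2 was at 90.1 ± 37 in HC and 48.2 ± 17.5 in HC/HT. The interaction, the difference between the knockout's effects with and without hypertension, passed for 0 of 15004 genes in limma, with 207 at an unadjusted p under 0.05 (1.38%). For Cd5l it was 0.24 (unadjusted p 0.695), for Abcg1 -0.10 (0.847), for Trem2 0.60 (0.337) and for Gpnmb 0.33 (0.612). For Spp1 it was -2.86 (0.0631), with Spp1 at 847 ± 868 units in HC and 321 ± 74.2 in HC/HT. These values do not show that the effects are equal.

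Among the 56 genes that passed, 4 had an unadjusted interaction p under 0.05, beside 1.38% of all genes tested. Of these 4, 3 are the melanocyte genes that passed. The 56 were chosen by the HC/HT against HT difference, which is part of the interaction. Their unadjusted interaction p-values therefore tend to be low and do not show that the knockout's effects differ. Tyrp1 differed by -0.21 between HC and CON and by 2.37 between HC/HT and HT (interaction 2.58, unadjusted p 0.000937), Pmel by 0.18 and 2.08 (0.00408), and Kit by 0.32 and 1.87 (0.0144). Tyrp1 was at 26.8 ± 12.3 units in CON, 21.5 ± 8.57 in HC, 11.0 ± 4.53 in HT and 69.5 ± 51.5 in HC/HT. The fourth was Col11a1, at -0.49 and -1.94 (0.0241). None of the 4 passed after adjustment over all genes, where the smallest adjusted p was 1.

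**Figure D5:**
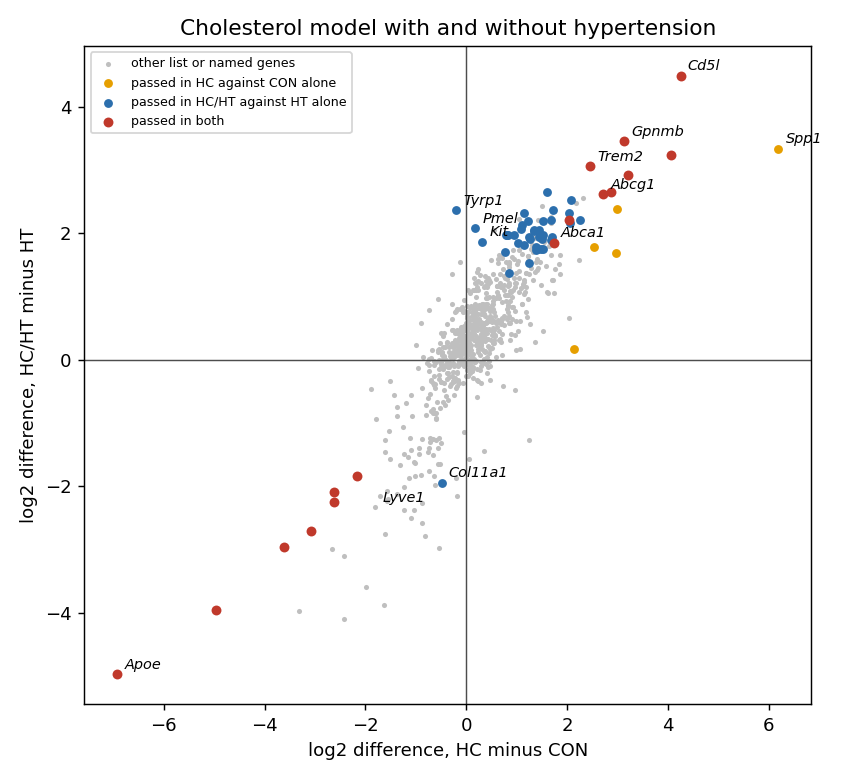
Log2 difference of the knockout with hypertension (vertical, HC/HT minus HT) against that without (horizontal, HC minus CON), for listed or named genes, coloured by the comparison in which they passed. Cd5l lies at 4.25 and 4.49 and Apoe at -6.92 and -4.97, while Tyrp1, Pmel and Kit lie near 0 on the horizontal axis and at 2.37, 2.08 and 1.87 on the vertical one.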

How the data were processed

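RNA of mouse aortic valves was measured by sequencing. Per the labels' protocols, DNase-treated total RNA was amplified as cDNA with the Nugen Ovation RNA-Seq System v2. Tools listed in the submitters' processing notes are Bowtie 1.0.1, SAMtools 0.1.9, FastQC 0.11.2 and edgeR, with the build mm10. The sources used here do not give how reads were counted, with or without strand, or how counts were normalised. The deposited table is treated as a score: normalised counts that the authors rounded to whole numbers, in 20992 rows. Library totals are nearly equal (10207928 to 10210305), so depth is unknown and no counting interval is given. A current mouse symbol was found for 17944 row names and an older one for 801, and 2247 had none. 1 column of values without a name was not used, which leaves 3 HC/HT libraries of 4 planned.

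Values were multiplied by 0.0979537. A gene was tested if 4 or more libraries reached 1 unit. Log2 values with a pseudocount of 1 were fitted in R 4.3.3 with limma 3.58.1, using lmFit, contrasts.fit and eBayes (trend and robust on). Group and sex were terms, and all 15 libraries shared 1 estimate of the spread. Tests were two-sided. The labels do not say that each library is 1 separate mouse, so p-values measure the spread between these libraries. At low values the pseudocount makes fitted differences smaller than ratios of means. The script was tested on simulated data.

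The genes, the 39 lists and the tests were chosen with earlier results of these data known. Named are the 12 largest differences per direction that passed without overlap, leaving out predicted or unnamed transcripts (filled by smallest p), every list member that passed, up to 4 members per list and 19 genes of interest. Alternatives were other scalings, pseudocounts, filters, models and thresholds, females alone, and omission of each library. Column numbers run from 3 to 7 for HC/HT and from 10 to 17 for HT. Their meaning is not stated, and any order they mark cannot be told apart from the groups. Results for some genes are not reported here.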

Additional observations from a re-analysis of the deposited data

Results flagged for a closer look

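In 9 of the 92 genes examined, 1 of the 4 HT libraries stood far from the other 3, with a gap to its nearest neighbour, as a share of the group's range, above Dixon's critical value. Groups of 3, such as HC/HT, were not examined in this way. Chance alone gives such a gap in about 1 in 20 groups of independent, normally distributed values. The 92 genes share the same 4 HT libraries and are not independent, so the 9 cannot be set against that rate.

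HT replicate 1 stood high in 5 genes. The leukocyte integrin subunit Itgb2 was at 34.5 units there and at 8.52 to 9.70 in the other HT libraries. The cholesterol-esterifying enzyme Soat1 was at 47.1 against 20.4 to 20.7 units, and the lysosomal growth factor precursor Grn at 148 against 47.7 to 51.9. The proton pump subunit Atp6v1a was at 70.3 against 28.1 to 32.7 units, and the proteoglycan Acan at 7.54 against 3.04 to 3.53. In HC/HT the same genes stood at 55.9 to 59.2 (Itgb2), 53.3 to 76.4 (Soat1), 130 to 197 (Grn), 64.4 to 116 (Atp6v1a) and 0.490 to 1.57 units (Acan).

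HT replicate 3 stood low in 2 genes, the smooth muscle actin Acta2 (42.5 against 299 to 375 units) and the mitochondrial dehydrogenase Aldh5a1 (3.72 against 8.91 to 10.4 units). HT replicate 2 stood low in the protease Adam8 (1.08 against 6.56 to 8.03 units). HT replicate 4 stood high in Vmn2r29, of the vomeronasal receptor family (7.35 against 3.33 to 3.72 units).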

How the results depend on the processing

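Against 48 higher and 8 lower genes, the fits gave the following counts, higher first. They were 24 and 12 with medians of ratios, 32 and 13 with quantile normalisation, 27 and 9 with a pseudocount of 0.25, 52 and 4 with 4, 4 and 4 without a filter, 40 and 4 with a filter at 5 units, 25 and 4 with array weights, 19 and 8 with plain eBayes, 146 and 75 with only HC/HT and HT in the fit, 41 and 117 in females alone, and 82 and 11 at an adjusted p under 0.1. Leaving out 1 library gave 4 to 251 higher and 2 to 11 lower genes, and leaving out HT replicates 2 and 3 together gave 2 and 5. The cause was not tested. No gene that passed changed sign in any of these fits, and Apoe stayed between -5.61 and -4.56 when 1 library was left out.

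Whether the replicate numbers pair the libraries cannot be settled with so few libraries. Deviations of same-numbered libraries correlated at -0.00, 0.19 and 0.01, and 0 of 3 HC/HT libraries correlated best with their own number. A replicate block gave 116 higher genes (46 of the 48 among them) and 22 lower genes (8 of the 8).

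Direction turned for Col1a1, which ran from -0.41 to 0.21 with 1 library left out (0.21 without HT replicate 1), and for Tgfb1 without HT replicates 2 and 3 together (-0.12). List medians moved by more than the spread between libraries in females alone (basement membrane -0.36, respiratory chain -0.93, contractile -2.38, cardiomyocyte -3.52), without HT replicates 2 and 3 (TGF-beta -0.20, unfolded protein response -0.17, Schwann cell -0.35), with a filter at 5 units (renin-angiotensin 0.10, neutrophil and mast cell 1.71) and with pseudocounts of 0.25 and 4 (T and NK cell 1.51 and 0.49, B and plasma cell 1.42 and 0.36). With 1 library left out, medians ran from -0.12 (HC/HT replicate 1) to 0.28 for endothelial, from 0.01 to 0.43 (HT replicate 1) for Notch and Wnt, and from -0.43 to 0.04 (HT replicate 2) for renin-angiotensin genes. The interaction passed for 10 genes in females alone, all lower, and could not be computed with HC/HT and HT alone in the fit. Since depth is unknown, values near 0.1 units carry little precision.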
